A study of Mus musculus with 16 samples.

Results

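Interferon-stimulated genes are the genes that cells switch on when an interferon reaches them. A list of 42 of them was followed by symbol through the deposited RNA sequencing of lymph node macrophages. All 42 were found among the 55423 rows of the count table, all 42 were among the 21085 genes tested, and all 42 had a mean normalized count over 100 per sequencing lane. By role, the list holds 5 transcription factors and feedback genes, 5 sensors of nucleic acids, 5 genes of the oligoadenylate synthetase (OAS) family, 4 of the IFIT family, 14 other antiviral effectors and 9 interferon-inducible GTPases.

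Type I interferons bind the receptor made of IFNAR1 and IFNAR2, and interferon-gamma binds the receptor made of IFNGR1 and IFNGR2. Janus kinases at these receptors activate transcription factors of the STAT family. Type I interferons act on DNA mainly through the interferon-stimulated response element (ISRE), and interferon-gamma mainly through the gamma-activated site (GAS). In lymph nodes, subcapsular macrophages are known from viral infection as early targets of lymph-borne virus and as a source of type I interferon.

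RNA was sequenced from sub-capsular sinus macrophages (SSMs), which lie under the node's capsule, and from medullary sinus macrophages (MSMs), which lie in the medulla. Male C57B/6 mice carried MOC2, a mouse squamous cell carcinoma line, of which 500000 cells had been placed intradermally in the flank close to the inguinal node 2 weeks earlier. SSMs and MSMs were each taken from tumor-draining lymph nodes (tdLNs) and from non-draining lymph nodes (ndLNs), which gives 4 groups with 2 libraries each. Each library stands for a pool of 2 mice, with 2 tdLNs or 6 ndLNs (contralateral inguinal, axillary and brachial). By the methods every pool gave all 4 groups, so the ndLNs are those of tumor-bearing animals, and mice without a tumor were not part of the comparison. Libraries numbered 1 or 2 in the labels are called pool 1 and pool 2 here. The sort gate was CD45+ CD3- B220- Ly6G- CD11b+ CD169+ for all cells, with CD11c- and low side scatter for SSMs and CD11c+ and high side scatter for MSMs. The libraries held between 42972328 and 48130352 counts, so a count of 0 allows a level of up to 0.0623 to 0.0698 CPM, before scaling and for counting error only. CPM are counts per 1000000 counts of the library, here scaled by the normalization factors of edgeR.

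Marker genes went in part against the labels, and the names SSM and MSM below refer to the gates. Siglec1, which encodes the gated CD169, was between 0.795 and 5.96 CPM in the 4 MSM libraries and between 8.47 and 70 CPM in the 4 SSM libraries. Other macrophage markers differed in direction. By the rule for calls given below, 5 of 12, with Siglec1, were called toward SSMs in ndLNs. Mertk and Cd68 were called toward MSMs there. Mertk was at 0.129 and 0.465 CPM in SSMs and at 3.82 and 2.7 CPM in MSMs. Cd68 was at 211 and 134 CPM against 385 and 326 CPM. In tdLNs, 6 of the 12 were called toward SSMs and 0 toward MSMs. The MSM libraries carried dendritic cell genes, with Flt3 between 672 and 852 CPM and Clec9a between 132 and 203 CPM. The summed level of 11 dendritic cell markers was 4625 to 5093 CPM in MSMs against 1176 to 2314 CPM in SSMs. Most of the SSM sum was Ccr7, at 601 to 1877 CPM in SSMs and at 1644 to 2100 CPM in MSMs. The SSM libraries carried markers of natural killer (NK) cells, whose 10 genes summed to 2266 to 3686 CPM against 260 to 378 CPM in MSMs, and markers of innate-like lymphoid cells, whose 12 genes summed to 584 to 1748 CPM against 57.3 to 96.4 CPM. Although the gate was CD3-, 12 T cell markers summed to 2089 and 2320 CPM in SSMs from ndLNs and to 1027 and 1130 CPM in SSMs from tdLNs, against 496 to 879 CPM in MSMs. Most of the MSM sum was Cd8a, at 357 to 605 CPM in MSMs against 10 to 25.7 CPM in SSMs. The other 11 were higher in SSMs in both nodes. Cd3e was at 151 and 143 CPM against 12.3 and 16.3 CPM in ndLNs, and at 75 and 84.3 CPM against 3.05 and 2.14 CPM in tdLNs. In MSMs the highest of these 11 was Cd4, at 58.4 to 116 CPM. Cd8b1 was at 3.54 to 17.2 CPM there and Zap70 at 0.945 to 8.18 CPM, whereas the dendritic cell marker Xcr1 was at 630 to 752 CPM. The T cell sum in MSMs was therefore not read as a level of T cells. Basophil and mast cell markers, 12 genes, summed to 3240 and 2174 CPM in SSMs from ndLNs and to 427 and 834 CPM in SSMs from tdLNs, against 312 to 689 CPM in MSMs. Among these genes only Kit was lower in SSMs, in both nodes, and at 269 to 614 CPM it made up most of the MSM sums. Cpa3 was at 36.1 to 562 CPM in SSMs and at 0.0256 to 0.33 CPM in MSMs. Within SSMs, 12 macrophage markers summed to 6074 and 9349 CPM in ndLNs and to 16090 and 23273 CPM in tdLNs, while innate-like lymphoid markers summed to 1440 and 1748 CPM in ndLNs and to 584 and 646 CPM in tdLNs. Plasmacytoid dendritic cell markers, 8 genes, summed to 114 to 147 CPM in MSMs and to 69.4 to 96.5 CPM in SSMs. In each node 2 of the 8, Ccr9 and Bcl11a, were called lower in SSMs and 0 were called higher. These shifts run along the same contrasts as the results below, and their part in the results was not tested.

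The promoters of the genes with the lowest p-values in SSMs against MSMs are shown first, because the ISRE is the element through which type I interferons act. RefSeq windows of 300 bases (250 before to 50 after the start of transcription, GRCm38.p6) were at hand for 32 of the 42 genes. An ISRE, searched on both strands as GAAA, any 2 bases and GAAA again, was found in 20 of the 32 (62.5%), against 3.99% of 27025 genes with a window. A GAS, searched as TTC, any 3 bases and GAA, which reads alike on both strands, was found in 11 of the 32 (34.4%), against 9.55%. The stretches below run 5′ to 3′ along the gene from 120 bases before to 20 bases after the start of transcription, with the ISRE match in capitals. Gbp7 is from chr3:142530216-142530355 (plus strand), Igtp from chr11:58199436-58199575 (plus), Ddx58 from chr4:40239806-40239945 (minus) and Gbp3 from chr3:142559924-142560063 (plus). Oasl2, from chr5:114896814-114896953 (plus), had no ISRE of these letters in its window and is shown for contrast.
Gbp7: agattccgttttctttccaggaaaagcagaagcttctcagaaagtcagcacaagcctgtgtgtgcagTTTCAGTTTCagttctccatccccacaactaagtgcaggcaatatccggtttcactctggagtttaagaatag
Igtp: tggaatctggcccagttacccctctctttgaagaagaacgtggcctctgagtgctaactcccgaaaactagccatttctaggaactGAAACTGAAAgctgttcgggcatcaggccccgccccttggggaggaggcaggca
Ddx58: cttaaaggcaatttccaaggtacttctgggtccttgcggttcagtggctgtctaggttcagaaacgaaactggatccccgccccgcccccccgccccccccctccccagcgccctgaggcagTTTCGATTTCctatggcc
Gbp3: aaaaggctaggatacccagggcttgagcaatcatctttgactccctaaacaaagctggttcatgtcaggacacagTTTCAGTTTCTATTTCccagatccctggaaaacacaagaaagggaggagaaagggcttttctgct
Oasl2: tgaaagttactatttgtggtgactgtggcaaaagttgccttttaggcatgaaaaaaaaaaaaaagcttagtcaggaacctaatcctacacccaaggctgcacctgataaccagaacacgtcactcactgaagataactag
The match starts 53 bases before the start of transcription in Gbp7, 34 bases before it in Igtp and 2 bases after it in Ddx58, and in Gbp3 a pair of overlapping matches starts 45 and 39 bases before it. Of the genes with a window, the 20 with an ISRE had a median log2 fold change of SSMs over MSMs of 1.18 in ndLNs and 2.25 in tdLNs, and the 12 without had 0.40 and 1.66. For SSMs from tdLNs over ndLNs the order was the other way, with medians of 1.11 and 1.36. These medians are descriptions, and no difference between them was tested.

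Several of the genes lie side by side (mm10). Gbp2, Gbp3, Gbp5 and Gbp7, guanylate-binding proteins that attack the vacuoles of intracellular microbes, sit on chromosome 3 between positions 142493978 and 142638008. Oas1a, Oas2 and Oas3, whose enzymes make the messenger that activates RNase L, sit on chromosome 5 between 120730333 and 120907521. Ifit1, Ifit2, Ifit3 and Ifit3b, which encode proteins that bind foreign RNA, sit on chromosome 19 between 34550694 and 34650009. Neighbouring copies share sequence, and the values of 3 genes are uncertain for that reason. Of the 50-base stretches of their transcripts, 57.6% of those of Oas1a occur in Oas1g, 51.2% of those of Ifit3 occur in Ifit3b and 44.5% of those of Ifit3b occur in Ifit3. Rtp4 shares 13.9% of its exon bases with Gm45338 on the same strand, and Ifi35 shares 16.8% with Gm11626 on the opposite strand, where reads cannot be told apart unless strand was used, and the strand setting is not given in the sources used here.

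Per length, Ifitm3 was the most abundant of the 42 genes, with a mean over the 8 libraries of 914 RPKM (CPM divided by the exon length in kilobases). It encodes a membrane protein that blocks the entry of viruses from endosomes, and its level ran from 303 to 2235 RPKM between libraries. Isg15, a ubiquitin-like protein that is attached to other proteins, followed at 230 RPKM, then Irf7, a transcription factor that drives type I interferon genes, at 189 RPKM and Bst2, or tetherin, which holds budding virus at the cell surface, at 147 RPKM. The ranges of these 3 genes over the libraries overlapped. At the other end stood Mx2 at 2.53 RPKM and Iigp1 at 2.48 RPKM.

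**Figure D1:**
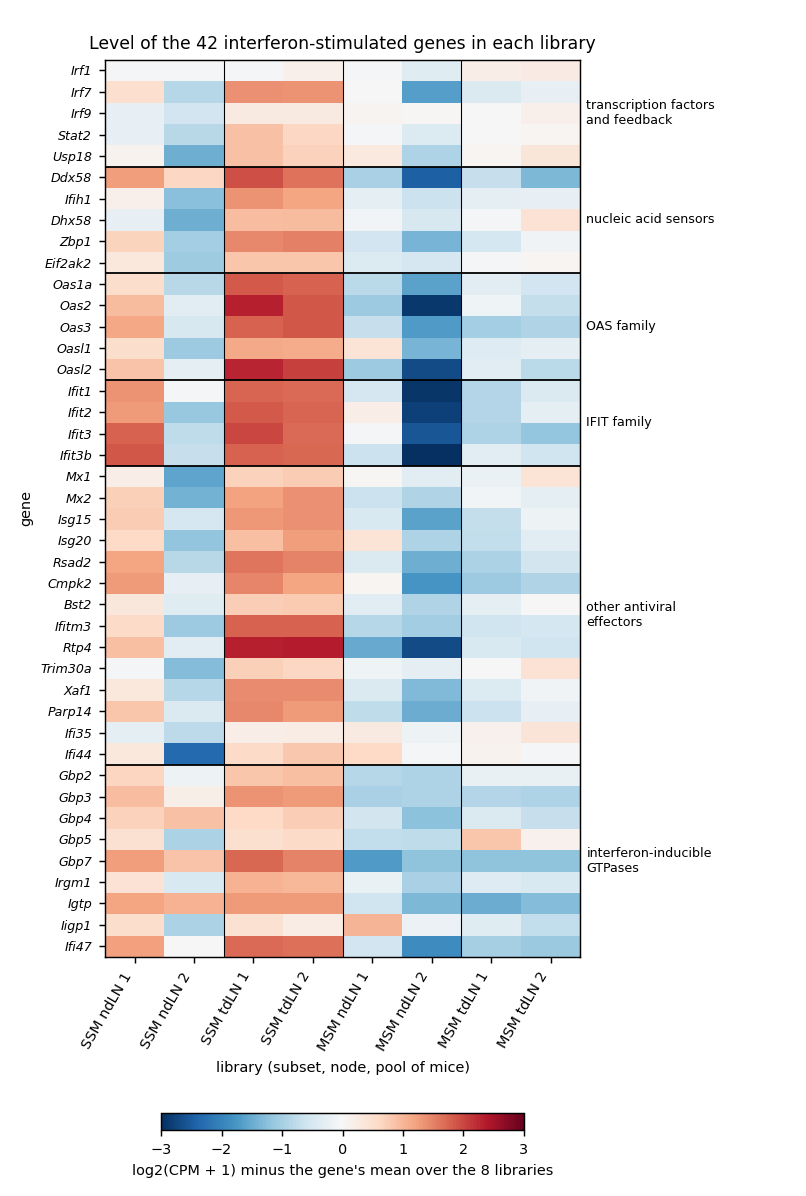
Heat map of the 42 interferon-stimulated genes (rows, grouped by role) in the 8 libraries (columns), as log2(CPM + 1) minus the gene's mean over the libraries. Both SSM tdLN libraries are high for nearly every gene, and in the ndLN columns pool 2 is lower than pool 1 for 41 genes in SSMs and 40 in MSMs.

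In ndLNs, SSMs had more RNA than MSMs from 10 of the 42 genes: the GTPases Gbp2, Gbp3, Gbp4, Gbp7, Igtp and Ifi47, the OAS family genes Oas2 and Oasl2, the RNA sensor Ddx58 and Rtp4, a receptor transporter protein. All 10 calls were toward SSMs. Of all genes tested, 12.1% were called in either direction and 6.01% were called higher in SSMs, where called means a p-value under 0.01 in the quasi-likelihood test of edgeR, adjusted after Benjamini and Hochberg over 21085 genes, together with a mean normalized count over 100. The median log2 fold change of the 42 genes was 0.90, against 0.09 over all genes tested. Both SSM libraries were above both MSM libraries for 14 of the 42 genes (33.3%), which is near the 30.7% of all genes. In bulk RNA, fewer cells of a type and less RNA per cell cannot be told apart.

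Ddx58, which encodes the RNA sensor RIG-I, was at 151 and 96.7 CPM in SSMs (pools 1 and 2) and at 31.2 and 10.7 CPM in MSMs from ndLNs. The SSM values lie well above both MSM values, and the log2 fold change was 2.64 ± 0.274 (SE), or 6.25-fold, with an adjusted p of 0.000458 in edgeR's quasi-likelihood test. Gbp7 was at 114 and 86.3 CPM in SSMs and at 13.9 and 19.9 CPM in MSMs. It had the lowest adjusted p-value of the 42 genes here, 0.000263 in edgeR's quasi-likelihood test, with a 5.87-fold difference. Igtp, an immunity-related GTPase also called IRGM3, was at 144 and 130 CPM in SSMs and at 41 and 24 CPM in MSMs, a 4.25-fold difference. For Gbp7 and Igtp the pools differed little beside the gap between subsets.

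Rtp4 was at 102 and 43.2 CPM in SSMs and at 18.4 and 7.64 CPM in MSMs. Oas2 was at 37.6 and 15.1 CPM in SSMs and at 8.38 and 1.69 CPM in MSMs. Oasl2, an OAS-like protein, was at 149 and 68.2 CPM in SSMs and at 38.1 and 11.9 CPM in MSMs. In these 3 genes pool 1 exceeded pool 2 more than 2-fold in both subsets, yet each SSM library stayed above both MSM libraries, and the folds were 5.53, 5.41 and 4.49.

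By role, the GTPases had 6 of 9 genes called and a median log2 fold change of 1.56, and the OAS family had 2 of 5 called with a median of 1.69. The IFIT family had a median of 2.01 but no gene called by edgeR's quasi-likelihood test. In that test 3 of its 4 genes had an unadjusted p under 0.05, as did 7435 of all 21085 genes. The DESeq2 Wald test called none of the 4 either. Their libraries differed most between pools. Ifit3 was at 144 and 24.3 CPM in SSMs and at 40.2 and 6.22 CPM in MSMs, so the higher MSM library exceeded the lower SSM library. Ifit3b was at 29.4 and 4.16 CPM in SSMs and at 4.33 CPM and 0 in MSMs, where the 0 allows up to 0.0645 CPM. None of the 5 transcription factors and feedback genes was called in edgeR's quasi-likelihood test or in the DESeq2 Wald test, 1 of them had an unadjusted p under 0.05, and their median was -0.29.

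The count rested in part on single libraries. Without the MSM ndLN library of pool 2 it was 3 (Ddx58, Gbp7 and Igtp), without that of pool 1 it was 6, and without the SSM ndLN library of pool 1 it was 6, of which 1, Ifi44, was called lower in SSMs. Within pool 1 the median log2 fold change of the 42 genes was 1.24, and within pool 2 it was 0.59.

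In tdLNs, SSMs had more RNA than MSMs from 13 of the 42 genes, and again all calls were toward SSMs. They were Ddx58, Rtp4, Ifitm3, the OAS family genes Oas1a, Oas2, Oas3 and Oasl2, and the GTPases Gbp3, Gbp4, Gbp7, Ifi47, Igtp and Irgm1. Of all genes tested, 8.69% were called and 5.16% were called higher in SSMs. The median log2 fold change of the 42 genes was 1.68, against 0.02 over all genes, and 39 of the 42 had both SSM libraries above both MSM libraries, against 29.5% of all genes. At an adjusted p under 0.05 in edgeR's quasi-likelihood test, 25 of the 42 genes passed, against 9.19% of all genes toward SSMs.

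Rtp4 showed the widest gap among the called genes, at 278 and 282 CPM in SSMs and at 39.4 and 35.3 CPM in MSMs from tdLNs. Here both pools nearly coincided within each subset, and the fold was 7.62 (adjusted p = 0.0011, edgeR's quasi-likelihood test). Gbp7 was at 158 and 136 CPM in SSMs and at 20.1 CPM in both MSM libraries, 7.29-fold apart. Oas3 was at 119 and 126 CPM in SSMs and at 16.3 and 17.8 CPM in MSMs, 7.25-fold apart. Each of these genes had its pools close together in tdLNs.

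Ddx58 was at 243 and 197 CPM in SSMs and at 38.7 and 24.2 CPM in MSMs, 7.21-fold apart. Oasl2 was at 402 and 344 CPM in SSMs and at 64.5 and 46 CPM in MSMs, 6.94-fold apart. Ifi47, an immunity-related GTPase that interferon-gamma induces, was at 254 and 246 CPM in SSMs and at 37.9 and 35.4 CPM in MSMs, 6.88-fold apart. No SSM value of these genes came near an MSM value. Ifitm3 was at 1515 CPM in both SSM libraries and at 294 and 305 CPM in MSMs, a 5.05-fold difference (adjusted p = 0.00621, edgeR's quasi-likelihood test).

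By role, 4 of 5 OAS family genes and 6 of 9 GTPases were called, with median log2 fold changes of 2.63 and 1.46. The IFIT family had a median of 2.44, and all 4 genes had both SSM libraries above both MSM libraries, against 29.5% of all genes. None of the 4 was called by edgeR's quasi-likelihood test at 0.01. All 4 had an unadjusted p under 0.05, as did 5865 of all 21085 genes. The DESeq2 Wald test called Ifit3, at 169 and 137 CPM in SSMs and at 21.3 and 17.9 CPM in MSMs. Ifit3b was at 27.8 and 26.8 CPM in SSMs and at 5.7 and 4.51 CPM in MSMs. Irf7, at 1471 and 1461 CPM in SSMs and at 423 and 479 CPM in MSMs, had an adjusted p of 0.0385, and Isg15, at 344 and 362 CPM in SSMs and at 83.9 and 125 CPM in MSMs, had an adjusted p of 0.0319, both in edgeR's quasi-likelihood test. Bst2 was at 207 and 214 CPM in SSMs and at 100 and 124 CPM in MSMs.

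The count moved with single libraries. It was 9 without the SSM tdLN library of pool 1 and 3 without that of pool 2, it was 2 (Gbp7 and Igtp) without either MSM tdLN library, and it was 18 without either SSM ndLN library and 10 without either MSM ndLN library. Both pools gave a gap of like size, with median log2 fold changes of 1.84 in pool 1 and 1.57 in pool 2, and 40 of the 42 genes higher in SSMs in each.

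**Figure D2:**
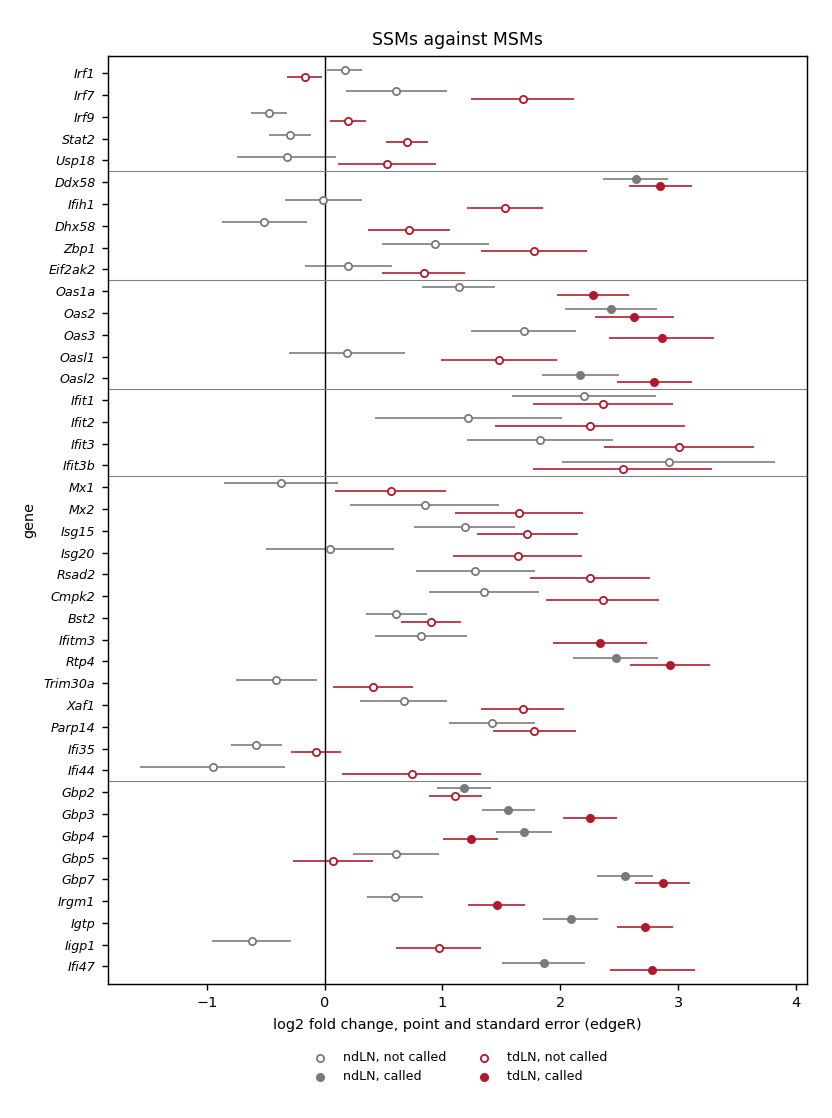
Log2 fold change of SSMs over MSMs for each of the 42 genes, in ndLNs (grey) and in tdLNs (red), with standard errors from the edgeR fit of 8 libraries. Filled points were called, 10 in ndLNs and 13 in tdLNs, and all filled points lie to the right of 0.

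SSMs from tdLNs were then compared with SSMs from ndLNs. The tdLN pools hold 2 nodes, and the ndLN pools hold 6 nodes that include axillary and brachial ones. Drainage of the tumor, node site and number of nodes therefore cannot be told apart in any contrast of tdLNs with ndLNs. The ndLN libraries of SSMs are the same as those compared with MSMs above. The genes Stat2, Oas1a and Rtp4 were called, all 3 higher in tdLNs, while 3.04% of all genes were called and 1.99% were called higher. The median log2 fold change of the 42 genes was 1.26, against -0.04 over all genes, 41 of the 42 had a value above 0, and 36 had both tdLN libraries above both ndLN libraries, against 25.6% of all genes. At an adjusted p under 0.05 in edgeR's quasi-likelihood test 11 genes passed, against 5.64% of all genes toward tdLNs. They were the called 3 with Irf9, Ifih1, Dhx58, Oas2, Oasl2, Ifitm3, Xaf1 and Irgm1.

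Stat2, a transcription factor activated by type I interferons that acts with IRF9 at the ISRE, was at 77.7 and 51.7 CPM in SSMs from ndLNs and at 170 and 142 CPM in SSMs from tdLNs. Both tdLN values exceed both ndLN values, with a log2 fold change of 1.28 ± 0.178 (SE), or 2.43-fold, and an adjusted p of 0.00617 in edgeR's quasi-likelihood test. Oas1a rose from 105 and 40.3 CPM to 259 and 247 CPM, a 3.80-fold difference (adjusted p = 0.00956, edgeR's quasi-likelihood test). Rtp4 rose from 102 and 43.2 CPM to 278 and 282 CPM, a 4.19-fold difference (adjusted p = 0.0099, edgeR's quasi-likelihood test). As a ratio of pool 1 to pool 2, the ndLN pools lay further apart than the tdLN pools, at 1.5 against 1.2 for Stat2, 2.6 against 1.05 for Oas1a and 2.35 against 0.984 for Rtp4.

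Ifitm3 was at 665 and 206 CPM in ndLNs and at 1515 CPM in both tdLN libraries (adjusted p = 0.0253, edgeR's quasi-likelihood test). Irf7 was at 813 and 314 CPM in ndLNs and at 1471 and 1461 CPM in tdLNs (adjusted p = 0.0759, edgeR's quasi-likelihood test). Both genes had every tdLN value above every ndLN value without reaching the 0.01 threshold. Isg15 was at 234 and 98.1 CPM in ndLNs and at 344 and 362 CPM in tdLNs, and Bst2 was at 157 and 95.7 CPM in ndLNs and at 207 and 214 CPM in tdLNs.

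The groups by role differed in this contrast. The OAS family and the sensors had medians of 1.82 and 1.57. All 10 of their genes were higher in both tdLN libraries than in both ndLN libraries, against 25.6% of all genes. The GTPases had a median of 0.60, and Gbp4 had a log2 fold change of -0.14. Igtp, 144 and 130 CPM in ndLNs and 153 and 155 CPM in tdLNs, had a log2 fold change of 0.18 ± 0.216 (SE), so it was high in SSMs of both nodes. Differences between these groups were not tested. Mx1 and Mx2 encode dynamin-like antiviral GTPases and are carried as defective alleles in C57BL/6 mice, yet RNA of both was counted. Mx1 was at 73.8 and 20.6 CPM in ndLNs and at 104 and 109 CPM in tdLNs of SSMs. Mx2 was at 12.5 and 2.1 CPM in ndLNs and at 18.1 and 20.4 CPM in tdLNs, and neither gene passed the threshold.

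The calls between nodes in SSMs changed with each library left out. With the SSM ndLN library of pool 1 left out, 2 other genes were called, Ifih1 and Ifitm3, and with any of the other 7 libraries left out, none of the 42 was called by edgeR's quasi-likelihood test. Without the pool block, 1 gene, Stat2, was called. Within pool 1 the median log2 fold change of tdLN over ndLN was 0.52, with 38 of the 42 genes above 0, and within pool 2 it was 2.08, with 41 above 0. Of the 12 macrophage markers given above, 11 moved in the same direction and Marco fell. Siglec1 went from 15.1 and 8.47 CPM to 70 and 59.2 CPM. The part of these markers in the rise of the 3 genes was not tested.

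In MSMs, none of the 42 genes was called between tdLNs and ndLNs by edgeR's quasi-likelihood test, at an adjusted p of 0.01 or of 0.05. Of all genes tested, 0.0237% were called, 0.00474% were called higher in tdLNs, and 0.133% were higher at an adjusted p under 0.05. An unadjusted p under 0.05 was reached by 9 of the 42 genes, 8 higher in tdLNs and Iigp1 lower, and by 2517 of all 21085 genes. A DESeq2 Wald test called 3 of the 42, and the share of all genes that it called is not given here. The median log2 fold change was 0.44, against 0.01 over all genes, and it was 0.02 within pool 1 and 0.89 within pool 2. Rtp4 had the lowest unadjusted p of the 42, at 18.4 and 7.64 CPM in ndLNs and at 39.4 and 35.3 CPM in tdLNs (adjusted p = 0.151, edgeR's quasi-likelihood test). Iigp1, an immunity-related GTPase of the parasite vacuole, was at 27.5 and 11.5 CPM in ndLNs and at 10 and 7.37 CPM in tdLNs, and in SSMs it was at 19.4 and 6.29 CPM in ndLNs and at 18.3 and 15.3 CPM in tdLNs. Stat2 was at 88.4 and 69 CPM in ndLNs and at 93.2 and 97.1 CPM in tdLNs, Irf7 at 574 and 180 CPM and at 423 and 479 CPM, and Oas1a at 40.6 and 22.9 CPM and at 57.8 and 48.4 CPM.

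The difference between the responses of the subsets was tested as an interaction of subset and node. None of the 42 genes was called by edgeR's quasi-likelihood test or by the DESeq2 Wald test. In the edgeR test, 8 of the 42 had an unadjusted p under 0.05, as did 2600 of all 21085 genes. Of all genes, 0.0379% were called, 0.0332% in the direction of a larger response in SSMs. At an adjusted p under 0.05 none of the 42 passed, against 0.811% of all genes in that direction. The lowest adjusted p among the 42 was 0.142, for Stat2, whose tdLN over ndLN log2 fold change exceeded that of MSMs by 0.99 ± 0.250 (SE). The median difference over the 42 genes was 0.83, against -0.01 over all genes, with 37 genes above 0. A difference between the subsets in their response was thus not shown for any single gene.

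**Figure D3:**
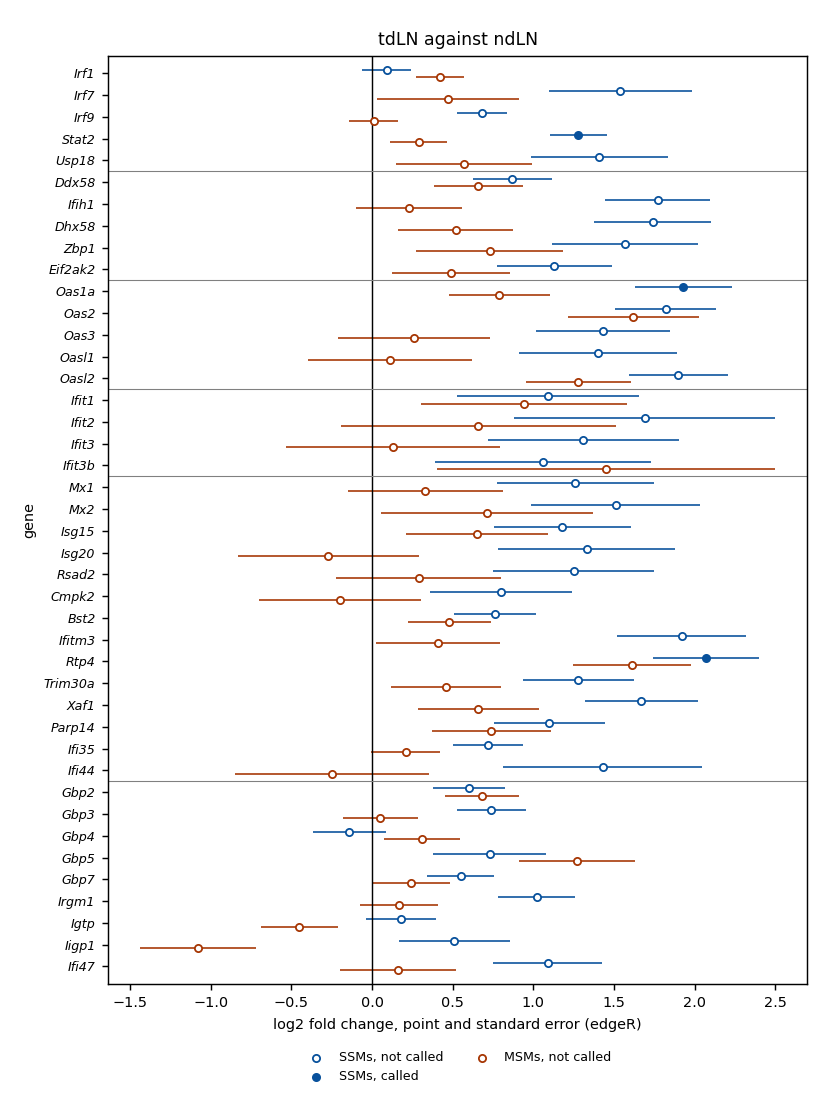
Log2 fold change of tdLNs over ndLNs for each of the 42 genes in SSMs (blue) and in MSMs (brown), with standard errors from the edgeR fit. The filled points are Stat2, Oas1a and Rtp4, the called genes in SSMs, and no MSM point is filled.

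The pools of mice lay apart in ndLNs and close together in tdLNs for these genes. In SSMs from ndLNs, pool 1 was higher than pool 2 for 41 of the 42 genes, at least 2-fold for 30 of them, with a median of 2.54-fold, while 2.87% of the 9988 genes with a mean count over 100 were at least 2-fold higher in pool 1. In MSMs from ndLNs, pool 1 was higher for 40 of the 42, at least 2-fold for 18, with a median of 1.74-fold, against 3.13% of all genes. In SSMs and in MSMs from tdLNs, no gene of the 42 was 2-fold higher in pool 1, the medians were 1.01-fold and 0.947-fold, and 0.611% and 2.39% of all genes were at least 2-fold higher.

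The IFIT family showed the pool difference most, with medians of 5.71-fold in SSMs and 7.42-fold in MSMs from ndLNs. Ifit2 was at 232 and 42.1 CPM in SSMs and at 109 and 12.7 CPM in MSMs from ndLNs, whereas in tdLNs it was at 342 and 321 CPM and at 50.7 and 78.4 CPM. Ifi44, an interferon-induced antiviral gene, ranged widest in SSMs, at 19.5 and 2.3 CPM or 8.34-fold. Gbp4, at 119 and 137 CPM in SSMs from ndLNs, and Gbp7, at 13.9 and 19.9 CPM in MSMs from ndLNs, ran the other way. The transcription factors and feedback genes differed least, by a median of 1.5-fold in SSMs and 1.28-fold in MSMs. Among them Irf7 differed more, 2.59-fold in SSMs and 3.19-fold in MSMs, as did Usp18, 3.04-fold and 2.37-fold. Irf1, a transcription factor that interferon-gamma induces, was at 241 and 240 CPM in SSMs from ndLNs. Each node and subset has 1 library per pool, so the difference between pools has no replicate and was not tested. The macrophage marker sum was 9349 CPM in pool 1 and 6074 CPM in pool 2 of SSMs from ndLNs, but 4715 CPM in pool 1 and 5355 CPM in pool 2 of MSMs from ndLNs, where it ran the other way, and its part in the difference was not tested. Most of these sums was the single gene Lyz2, at 7940 and 5044 CPM in these SSM libraries and at 3998 and 4636 CPM in these MSM libraries.

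**Figure D4:**
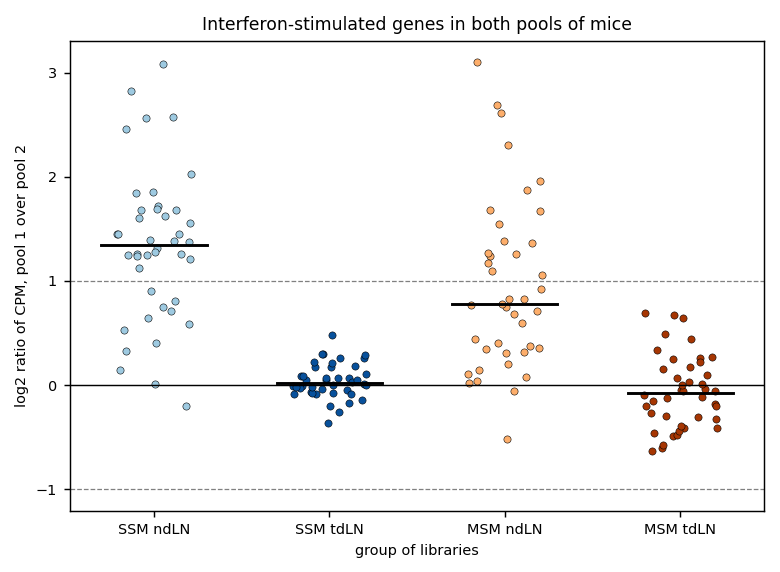
Log2 ratio of CPM in pool 1 over pool 2 for each of the 42 genes (points) within each group, with the median as a bar and dashed lines at 2-fold. The ndLN groups centre above 0 and the tdLN groups near 0. Ifit3b is left out of MSM ndLN, where pool 2 had no count.

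**Figure D5:**
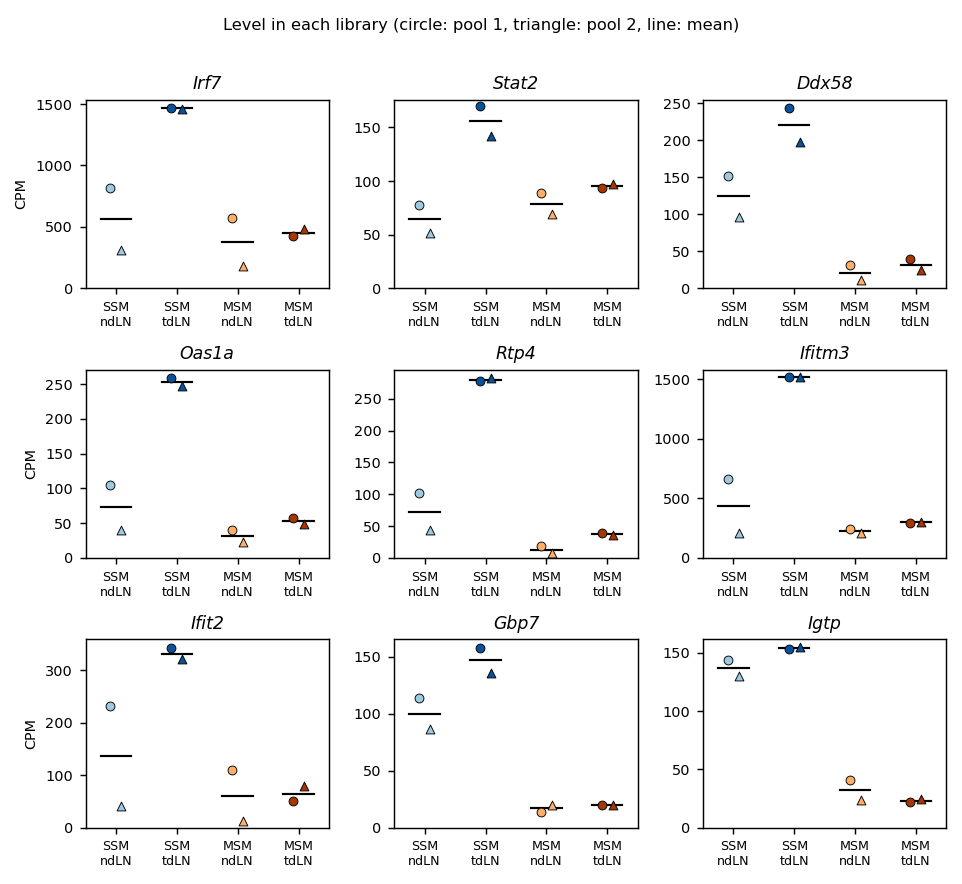
Levels in CPM of 9 interferon-stimulated genes in the 8 libraries, with circles for pool 1, triangles for pool 2 and a line at each group's mean of 2 libraries. Both SSM tdLN points lie at the top in each panel, while Gbp7 and Igtp are also high in SSMs from ndLNs and Stat2 is not.

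Upstream of these genes stand the ligands. Of 21 interferon genes, 4 passed the filter on low counts, Ifnb1, Ifna4, Ifna5 and Ifng. Ifng, which encodes interferon-gamma, was at 42.8 and 34 CPM in SSMs and at 3.08 and 2.36 CPM in MSMs from ndLNs, and at 57 and 99.4 CPM in SSMs and 0.0727 and 1.7 CPM in MSMs from tdLNs. It was called higher in SSMs in both nodes (adjusted p = 0.00121 and 0.000355, edgeR's quasi-likelihood test). Ifng is made mainly by NK cells and T cells, and the marker sums of both were higher in SSMs too, at 2266 to 3686 CPM against 260 to 378 CPM for NK cells and at 1027 to 2320 CPM against 496 to 879 CPM for T cells, and their part was not tested. Cd8a alone, at 357 to 605 CPM, was most of the T cell sum in MSMs, where Cd3e was at 2.14 to 16.3 CPM. That sum was not read as a level of T cells. Ifnb1, which encodes interferon-beta, had 85, 19, 6 and 51 counts in the SSM libraries and 0, 0, 0 and 14 counts in the MSM libraries (ndLN pools 1 and 2, then tdLN pools 1 and 2), and was not called in either node (adjusted p = 0.118 and 0.508, edgeR's quasi-likelihood test).

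All 6 receptor genes passed the filter. Ifnar2 was at 121 and 106 CPM in SSMs and at 59.6 and 60.4 CPM in MSMs from ndLNs, and at 167 and 153 CPM against 82.2 and 73.7 CPM in tdLNs. Ifngr1 was at 1951 and 2254 CPM in SSMs and at 1066 and 984 CPM in MSMs from ndLNs, and at 1488 and 1461 CPM against 774 and 692 CPM in tdLNs. Both genes were called higher in SSMs in both nodes, where 6.01% (ndLNs) and 5.16% (tdLNs) of all genes were called higher. Their partner chains were not called: Ifnar1 was at 340 and 385 CPM in SSMs and at 290 and 284 CPM in MSMs from ndLNs, and Ifngr2 was at 258 and 248 CPM and at 293 and 265 CPM. In tdLNs, Ifnar1 was at 380 and 322 CPM in SSMs and at 228 and 192 CPM in MSMs, and Ifngr2 at 401 and 344 CPM and at 250 and 239 CPM, with adjusted p-values of 0.0114 and 0.0116 in edgeR's quasi-likelihood test. Il10rb, a chain of the interferon-lambda and interleukin receptors, was called higher in SSMs from tdLNs, at 132 and 122 CPM against 63.6 and 56 CPM.

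Of 10 genes of JAK and STAT signalling, 3 were called higher in SSMs from ndLNs (Jak1, Socs1 and Stat3), and 3 were called higher (Jak1, Ptpn6 and Socs3) and Jak2 lower in SSMs from tdLNs. Of all genes tested, 6.01% were called higher in SSMs in ndLNs and 5.16% in tdLNs. Socs1, an inhibitor of Janus kinases, was at 229 and 235 CPM in SSMs from ndLNs and at 69.8 and 79.5 CPM in SSMs from tdLNs, and fell by 1.63 on the log2 scale (adjusted p = 0.00697, edgeR's quasi-likelihood test). Ptpn6, which encodes the phosphatase SHP-1, rose from 278 and 230 CPM to 703 and 602 CPM between the same groups. Socs3 was at 638 and 568 CPM in SSMs and at 248 and 207 CPM in MSMs from tdLNs.

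Of 15 genes that sense nucleic acids or relay the signal, the ndLN comparison of SSMs with MSMs called 3 toward SSMs and 4 toward MSMs, while 12.1% of all genes were called in either direction. Tlr3, the endosomal receptor of double-stranded RNA that cross-presenting dendritic cells carry, was at 4.45 and 2.22 CPM in SSMs and at 172 and 152 CPM in MSMs. Irf5 was at 180 and 169 CPM in SSMs and at 929 and 753 CPM in MSMs. Both were also called lower in SSMs from tdLNs. Unc93b1, which carries Toll-like receptors to endosomes, was at 340 and 246 CPM in SSMs and at 1366 and 1090 CPM in MSMs from ndLNs. In SSMs it rose to 1019 and 882 CPM in tdLNs, and Myd88, the adaptor of most Toll-like receptors, rose from 117 and 84.7 CPM to 261 and 253 CPM. These were the only called genes of the 15 in this comparison, where 1.99% of all genes were called higher.

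A further 65 interferon-stimulated genes outside the list of 42 were tested. In ndLNs, 11 of these were called toward SSMs and 3 toward MSMs, with a median log2 fold change of 0.41, where 6.01% of all genes were called toward SSMs and the median of all genes was 0.09. In tdLNs 24 were called toward SSMs and 1 toward MSMs, with a median of 1.05, against 5.16% and 0.02 for all genes. Between tdLNs and ndLNs, 6 were called higher in SSMs (Ifi207, Ifi30, Ms4a4c, Oas1g, Slfn2 and Slfn8), with a median of 0.84, against 1.99% and -0.04 for all genes. None was called in MSMs by edgeR's quasi-likelihood test, where 17 of the 65 had an unadjusted p under 0.05, as did 2517 of all 21085 genes, and the median was 0.22, against 0.01 for all genes. Slfn8, of the Schlafen family, was at 58.3 and 33.2 CPM in SSMs and at 15.8 and 10.4 CPM in MSMs from ndLNs, and at 113 and 105 CPM against 19.4 and 14.7 CPM in tdLNs. Slfn2, which T cells need to stay quiescent, was at 440 and 340 CPM in SSMs from ndLNs and at 773 and 687 CPM in SSMs from tdLNs, against 384 and 335 CPM and 264 and 226 CPM in MSMs. Ms4a4c, a membrane protein of the CD20 family, was at 482 and 211 CPM in SSMs from ndLNs and at 1127 and 1035 CPM in SSMs from tdLNs, against 94.4 and 67.5 CPM and 175 and 133 CPM in MSMs.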

How the data were processed

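The authors prepared libraries with SMART-Seq v4, trimmed the reads with Trimmomatic 0.36, aligned them to GRCm38 with STAR 2.5.3a (versions per the submitters' processing notes) and deposited raw counts per gene, neither normalized nor filtered. Strand setting and counting mode are not given in the sources used here. All columns were mapped to a sample, and 2 rows of added sequences, with 6 counts, were left out. GENCODE M21 held 55240 of the table's gene IDs.

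The 16 samples are 8 libraries run on lanes 3 and 4. Counts on both lanes of a library agreed within sampling noise (chi-square per degree of freedom 0.955 to 1.02, against 29.3 to 53.1 between libraries of a group), and were summed and counted as 1 sample. With n = 2 pools a group, p-values rest on the spread between libraries that is left after the fit of group and pool. That spread is estimated over all 4 groups together, so a test within tdLNs also carries the spread of the ndLN libraries. It covers these pools only.

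Genes with at least 10 counts in total and detection in 2 of 16 samples were tested with edgeR 4.0.16 (R 4.3.3), using TMM factors, a quasi-likelihood fit of group and pool on 8 libraries, and adjustment after Benjamini and Hochberg. The study fitted DESeq2 models with pool as a term to 16 samples. Here edgeR was run on 8 libraries instead, and the scripts were tested on simulated data. By the methods each pool of mice gave all 4 groups. The methods count 4 pools, which the sample matrix numbers by lane, whereas the labels number 2 libraries a group, and the label numbers were taken as pools. The block and the values within pools rest on that reading. Deviations from group means correlated between libraries of the same pool by -0.0795 (SSMs and MSMs, ndLN), 0.1645 (tdLN), 0.0493 (SSMs, both nodes) and 0.0011 (MSMs). For SSMs from ndLNs with MSMs from tdLNs the value was -0.1497, and for SSMs from tdLNs with MSMs from ndLNs it was 0.0466. The values lie on both sides of 0 and do not by themselves show the pairing.

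The members and gene lists were chosen with earlier results of these data known. Values in every library are given for members called between nodes, the 6 called members with the largest fold change of SSMs over MSMs in each node, the 4 highest and 2 lowest levels per length, Mx1, Mx2, Ifit3, Ifit3b, Irf7 and Stat2, and of the pathway lists for Ifnb1, Ifng, the 4 main receptor chains and up to 3 genes a list with the lowest p-value. A gene that the rule also names is not reported here. Ifit2, Ifi44, Irf1, Usp18, Gbp4 and Myd88 were named after their values were seen. Alternatives were the fit without pool, DESeq2 1.42.0 (test and size factors), other filters, thresholds and adjustments, edgeR's legacy fit, lanes as samples, only the groups compared, and each library left out.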

Additional observations from a re-analysis of the deposited data

How the results depend on the processing

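Between SSMs and MSMs in ndLNs, 10 of the 42 genes were called as reported, 23 with every lane as a sample and 0 after a Holm adjustment. Between SSMs and MSMs in tdLNs, 13 were called as reported, 22 by the DESeq2 Wald test, 33 with every lane as a sample, 30 with only the groups compared, 25 at an adjusted p under 0.05 and 0 after a Holm adjustment. Between nodes in SSMs, 3 were called as reported, 1 without the pool block, 13 by the DESeq2 Wald test, 1 with DESeq2's size factors, 1 without a filter on low counts, 5 with filterByExpr, 1 with the legacy fit, 30 with every lane as a sample, 0 with only the groups compared, 11 at an adjusted p under 0.05 and 0 after a Holm adjustment. Between nodes in MSMs, the DESeq2 Wald test called 3 and lanes as samples gave 7, and for the interaction lanes as samples gave 7, where 0 were called as reported. Counting lanes as samples counts each library 2 times. The shares of all genes called under the other tests, filters and fits are not given here. These counts therefore do not show whether the 42 genes stand out from all genes under those settings. The pool block changed no other count by over 1.5 times. Leaving out each library in turn gave 3 to 9 called genes for SSMs against MSMs in ndLNs, 2 to 18 in tdLNs, 0 to 2 between nodes in SSMs, and 0 between nodes in MSMs and for the interaction.

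Median log2 fold changes kept their direction under every alternative that used all libraries. Leaving out each library, they ran from 0.18 to 1.53 and from 1.26 to 2.38 for SSMs against MSMs in ndLNs and tdLNs, from 0.64 to 2.02 and from -0.04 to 0.81 between nodes in SSMs and MSMs, and from 0.35 to 1.44 for the interaction. The value of -0.04 came without the MSM tdLN library of pool 2. The causes were not tested. Every gene of the 42 had a mean count over 100, and low depth limits what can be said of Ifnb1, with 0 to 85 counts a library.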
